A study of Mus musculus with 2 samples.

Results

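The ligands of the interleukin-1 (IL-1) family were followed over the cells of inflamed mouse skin. The 9 members, *Il1a*, *Il1b*, *Il1rn*, *Il1f5*, *Il1f6*, *Il1f8*, *Il1f9*, *Il18* and *Il33*, were chosen by gene symbol among the 31053 genes of the deposited tables, and all 9 were found. Wild type C57BL/6 mice, aged 10 weeks by the labels, received imiquimod (IMQ), a Toll-like receptor agonist that induces psoriasiform inflammation, on the ear for 5 days. Epidermis and dermis were separated, digested and made into 1 droplet-based single-cell RNA library each, and both groups carry the same strain, genotype, age and treatment, so the only labelled difference between them is the tissue. No untreated skin was analysed here, and the number of mice behind each library is not given in the sources used here. The study sorted all live epidermal cells but only CD45+ live dermal cells, whereas the labels name removal of dead cells for both. With 1 library per tissue no test between tissues or cell types was possible, and every interval below is an exact 95% interval that covers counting error only.

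IL-1 family cytokines are made largely without a secretion signal, several as precursors that proteases cut, and they act through paired receptors whose shared adaptor is MyD88. IL-1α and IL-1β, from *Il1a* and *Il1b*, bind the same receptor, and the receptor antagonist from *Il1rn* occupies it without a signal. IL-36α, IL-36β and IL-36γ, from *Il1f6*, *Il1f8* and *Il1f9*, share another receptor that the antagonist from *Il1f5* occupies. IL-18 acts on lymphocytes, while IL-33 is a nuclear alarmin of barrier and stromal cells that signals through ST2. In skin the family is known for linking keratinocytes with neutrophils and type 17 T cells in psoriasis-like inflammation.

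In GENCODE M21 (GRCm38, the build named as mm10 in the submitters' processing notes) all 9 members are protein-coding genes, and 7 of them lie on chromosome 2. *Il1f8* (24153161 to 24160519), *Il1f9* (24186476 to 24193568), *Il1f6* (24215418 to 24225702), *Il1f5* (24276954 to 24283426) and *Il1rn* (24336853 to 24351494) follow each other on the plus strand within 198 kb. *Il1a* (129299610 to 129309972) and *Il1b* (129364570 to 129371139) lie together on the minus strand within 71.5 kb. *Il18* lies on chromosome 9 from 50554827 to 50581840 and *Il33* on chromosome 19 from 29925114 to 29960718, both on the plus strand. Counts were made per gene, so the isoforms of a member cannot be told apart.

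RefSeq promoter windows of build GRCm38.p6 were found for 8 of the 9 members, as 12 windows, and *Il1f6* had no entry. The 250 bases before each start were searched on both strands for 4 motifs whose factors are known from cytokine promoters. They were the TATA box with the letters TATAAA, the AP-1 motif with the letters TGANTCA, the C/EBP motif with the letters TTGCNNAA and an NF-kB motif. No match of one overlapped a match of another. Windows are shown for *Il1a*, *Il1b* and *Il33*, which carry TATAAA close to the start, and for *Il1f8* and *Il1f9*, neighbours on the chromosome with different cell types at the top of their order below. Capitals mark the motif matches, and each sequence is written 5′ to 3′ on the strand of the gene and ends at the base before the start.
*Il1a* (chr2:129309973-129310222, minus strand): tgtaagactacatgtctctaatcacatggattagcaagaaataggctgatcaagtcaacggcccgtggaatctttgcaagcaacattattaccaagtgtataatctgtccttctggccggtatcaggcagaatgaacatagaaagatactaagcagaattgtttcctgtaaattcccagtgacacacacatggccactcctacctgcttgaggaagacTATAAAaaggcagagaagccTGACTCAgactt
*Il1b* (chr2:129371140-129371389, minus strand): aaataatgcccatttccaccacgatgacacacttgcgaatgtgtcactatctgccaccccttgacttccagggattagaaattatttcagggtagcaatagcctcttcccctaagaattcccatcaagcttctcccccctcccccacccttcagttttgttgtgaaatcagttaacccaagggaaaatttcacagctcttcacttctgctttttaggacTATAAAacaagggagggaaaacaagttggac
*Il33*, second start (chr19:29945540-29945789, plus strand): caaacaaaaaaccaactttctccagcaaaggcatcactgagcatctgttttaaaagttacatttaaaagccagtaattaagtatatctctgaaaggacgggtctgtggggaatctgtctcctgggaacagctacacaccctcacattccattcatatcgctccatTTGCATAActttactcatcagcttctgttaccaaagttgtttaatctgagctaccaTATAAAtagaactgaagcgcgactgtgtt
*Il1f8* (chr2:24152922-24153171, plus strand): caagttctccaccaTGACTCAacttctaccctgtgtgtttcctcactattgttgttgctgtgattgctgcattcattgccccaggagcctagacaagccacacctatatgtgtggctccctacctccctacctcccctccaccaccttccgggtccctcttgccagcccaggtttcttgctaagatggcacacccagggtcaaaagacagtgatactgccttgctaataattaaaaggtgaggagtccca
*Il1f9* (chr2:24186226-24186475, plus strand): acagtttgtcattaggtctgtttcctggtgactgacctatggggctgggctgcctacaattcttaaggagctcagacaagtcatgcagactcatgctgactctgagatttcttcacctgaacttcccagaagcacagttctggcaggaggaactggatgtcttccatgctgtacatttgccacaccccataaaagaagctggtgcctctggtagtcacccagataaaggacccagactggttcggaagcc
TATAAA began 32 bases before the start in *Il1a*, 31 in *Il1b* and 29 at the second start of *Il33*. The letters TATAAA were in 5 of the 12 member windows and in 12.4% of 32841 promoter windows of the same length. TGANTCA was in 3 member windows, those of *Il1a*, *Il1f8* and the first start of *Il1rn*, and in 6.75% of all windows. TTGCNNAA was in 2 member windows, 1 each of *Il1f5* and *Il33*, and in 9.57% of all windows. The NF-kB motif was in 0 member windows and in 1.21% of all windows, and other spellings of an NF-kB site were not searched. A match describes the letters only, and no factor was measured here.

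The deposited tables count, for each cell and gene, distinct molecular tags (UMIs, unique molecular identifiers), of which a captured transcript carries 1. Of 5376 dermal and 5258 epidermal cells, 4747 and 4173 had at least 200 genes and at most 10% mitochondrial UMIs. The kept cells held 40392866 dermal UMIs (median 7010 per cell) and 105033363 epidermal UMIs (median 25918 per cell), and 45 barcodes were found in both libraries. Leaving them out changed none of the counts of members between the libraries, over the pools or between suprabasal and basal keratinocytes. Levels are given as CPM, the UMIs of a gene per 1000000 UMIs of the pooled cells, and 3 UMIs, the most that a count of 0 allows, equal 0.0743 CPM in the dermal and 0.0286 CPM in the epidermal library. Cells were gated by their UMIs of marker genes per 10000 UMIs, in which the members played no part, and 78.3% of dermal and 95.5% of epidermal cells fell into a class, with 722 and 104 cells in none and the rest past several gates. A gate is a range and not a type: 412 dermal cells lay within 1.5-fold below and 456 within 1.5-fold above the monocyte threshold, against 116 and 98 for the neutrophil threshold. Classes of at least 20 cells gave 21 pools, 11 dermal and 10 epidermal. Of the gate list, the genes found in most and in fewest cells were *Retnlg* (95.4%) and *Mrgpra2b* (41.25%) in the 606 dermal neutrophil-like cells. They were *Pf4* (97.3%) and *Mertk* (6.57%) in the 928 dermal macrophage-like cells. In the 430 spinous-like keratinocytes they were *Krtdap* (99.3%), also on the general keratinocyte list, and *Krt77* (1.63%), with *Dsc1* in 22.1%. *Krt17*, also on the general keratinocyte list, was found in 100% of the 54 upper follicle-like keratinocytes. In those 54 cells *Cst6* was found in 88.9%, *Defb6* in 77.8%, *Sox9* in 66.7%, *Krt79* in 63.0%, *Gata6* in 22.2% and *Lrig1* in 11.1%. Of the 54, 53.7% lay in clusters named upper follicle. Granular keratinocytes were too few, at 11 cells, to form a pool. Of their marker list, *Flg* and *Flg2* were at 0.0381 and 0 CPM over the kept epidermal cells. Other genes of that list were higher, *Ivl* at 16.8 CPM (23.75% of cells), *Lor* at 4.475 CPM (9.73%) and *Cdsn* at 1.71 CPM (1.89%). Despite the CD45+ sort, 301 dermal cells were fibroblast-like. Class names below carry this marker-based meaning throughout. Basal keratinocytes, however, had no gate of their own and were the keratinocytes past none of the upper follicle, granular, spinous and cycling gates. Cycling basal keratinocytes passed the cycling gate and none of the other gates just named. Of the 607 kept epidermal cells above the cycling threshold, 513 lay within 1.5-fold of it, and 619 cells lay within 1.5-fold below. Of the 528 cycling basal keratinocytes, 0% lay in clusters of that name. The upper follicle gate came first, then the granular and the spinous gate, so upper follicle cells could also pass the later gates.

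Across the libraries, the agonists *Il1a* and *Il1b*, the antagonist *Il1rn* and *Il18* were higher in the dermal library, whereas *Il1f5*, *Il1f6*, *Il1f8* and *Il33* were higher in the epidermal library. *Il1b* had 53272 dermal UMIs (1319 CPM) and 3467 epidermal UMIs (33.0 CPM), a ratio of 40.0 (38.6 to 41.4). *Il1a* had 490 and 65 UMIs, 12.1 against 0.619 CPM, a ratio of 19.6 (15.1 to 25.8). *Il18*, with 35.9 against 5.95 CPM, was 6.04-fold (5.50 to 6.65) and *Il1rn*, with 90.6 against 17.8 CPM, was 5.10-fold (4.82 to 5.39) higher in the dermal library. With the mean of per-cell CPM in place of pooled CPM, the log2 ratio was 3.23 in place of 5.32 for *Il1b* and 1.48 in place of 2.59 for *Il18*. The dermal library was thus the richer one for both IL-1 agonists and for their antagonist, by unequal factors.

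The IL-36 genes were divided between the libraries. *Il1f5* had 215 and *Il1f8* 277 epidermal UMIs, and both had 0 dermal UMIs, which makes them at least 27.6-fold and at least 35.5-fold higher in the epidermal library against 3 dermal UMIs. *Il1f6* had 629 epidermal and 17 dermal UMIs, 5.99 against 0.421 CPM and 14.2-fold (8.82 to 24.6) higher in epidermis. *Il1f9* had 4592 epidermal and 1515 dermal UMIs, 43.7 against 37.5 CPM, and at 1.17-fold (1.10 to 1.24) it was the 1 member within 2-fold. Its direction turned with the mean of per-cell CPM, which gave a log2 dermal to epidermal ratio of 0.67 in place of -0.22. *Il33* had 2632 epidermal and 282 dermal UMIs, 25.1 against 6.98 CPM and 3.59-fold (3.17 to 4.07) higher in epidermis.

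In all, 4 members were at least 2-fold higher in the dermal library, as were 30.9% of 15140 genes, and 4 at least 2-fold higher in the epidermal library, as were 24.9%. The median log2 dermal to epidermal ratio was -0.22 over the members and 0.03 over all genes tested. Each library is a mixture set by its sort and yield, so a change in cells of a type and a change in RNA per cell cannot be told apart at this level. Keratinocytes gave 95.6% of epidermal UMIs and 0.0474% of dermal UMIs, and myeloid classes gave 1.98% and 62.5%.

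**Figure D1:**
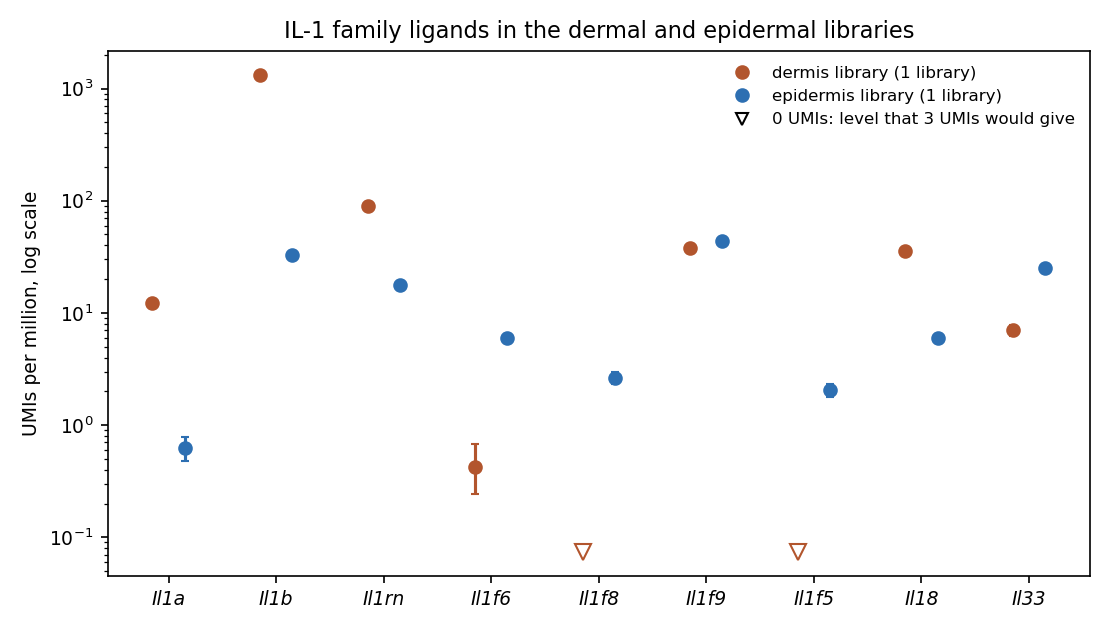
Level of each IL-1 family ligand in the dermal and the epidermal library (vertical axis: UMIs per 1000000 UMIs on a log scale; points: 1 library each; bars: exact 95% Poisson intervals, often smaller than the point; open triangles: 0 UMIs, drawn at the level of 3 UMIs). *Il1b* is highest in dermis at 1319 CPM, *Il1f9* lies close together at 37.5 and 43.7 CPM, and *Il1f5* and *Il1f8* have 0 dermal UMIs.

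Over the 21 pools, 5 members had their highest CPM in a myeloid class, against 32.7% of 15140 genes, and 4 in a keratinocyte class, against 16.2%. The myeloid members were *Il1a*, *Il1rn* and *Il1f9* (dermal neutrophils), *Il1b* (epidermal neutrophils) and *Il18* (epidermal Langerhans cells). The keratinocyte members were *Il1f5*, *Il1f6* and *Il1f8* (upper follicle) and *Il33* (spinous).

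**Figure D2:**
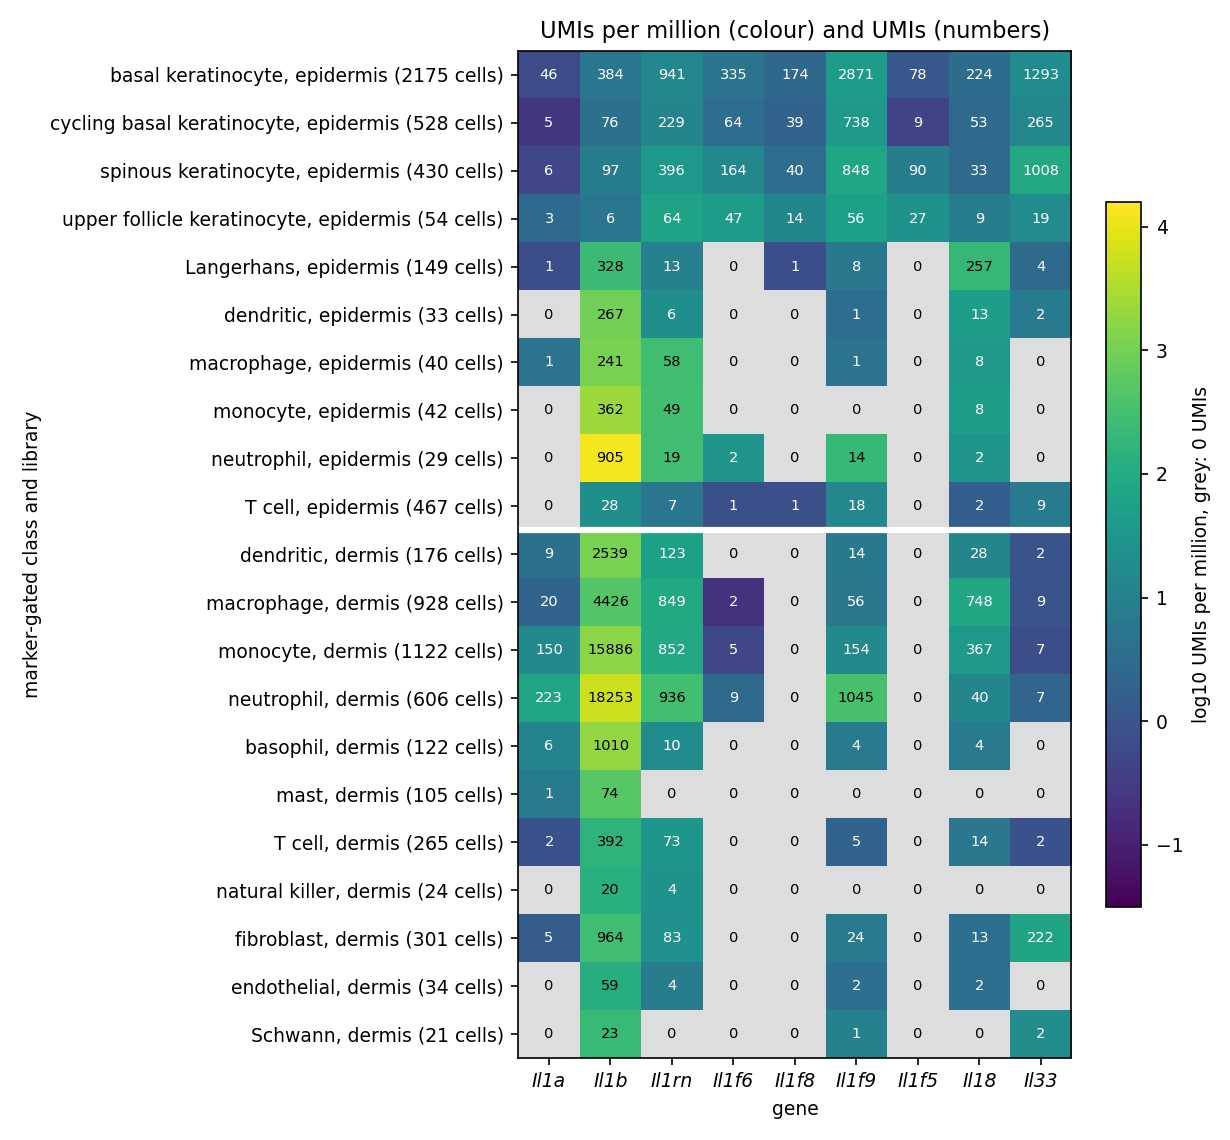
UMIs per 1000000 UMIs of each IL-1 family ligand (colour, log10 scale) in the 21 marker-gated pools of at least 20 cells, with the UMIs behind each value as numbers (rows: class, library and cells; grey: 0 UMIs). *Il1b* lies between 247 and 13422 CPM in the 11 myeloid rows, *Il1f5* has UMIs in the 4 keratinocyte rows only, *Il1f9* is high in neutrophils as well as keratinocytes, and *Il33* stands out in spinous keratinocytes and dermal fibroblasts.

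*Il1b*, the IL-1β precursor gene, lay between 247 and 13422 CPM in the 11 myeloid pools, and neutrophils led. The 29 epidermal neutrophils held 905 UMIs (13422 CPM, 12562 to 14326) and the 606 dermal neutrophils 18253 UMIs (5923 CPM, 5837 to 6009). Epidermal monocytes followed at 2163 CPM, dermal basophils at 1868 CPM and dermal monocytes at 1655 CPM. Each of these 5 pools differed from the next in the order beyond counting error, which leaves out the spread between cells. The 5 richest of the 42 epidermal monocytes held 44.2% of their *Il1b* UMIs, and the richest dermal basophil held 150 of 1010. The part of such cells in the order was not tested. Dermal dendritic cells reached 1129 CPM (2539 UMIs), dermal macrophages 467 CPM (4426 UMIs) and epidermal Langerhans cells 247 CPM (328 UMIs). Dermal fibroblasts (288 CPM) stood above Langerhans cells, and keratinocytes as a whole stood at 5.64 CPM (5.18 to 6.12) from 566 UMIs.

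The *Il1b* transcripts of neutrophils were spread over nearly all of their cells. At least 1 UMI was found in 591 of 606 dermal neutrophils (97.5%, median depth 3793.5 UMIs), the richest held 200 UMIs, and the 5 richest cells held 4.87% of the pool's *Il1b*. In dermal basophils 87 of 122 cells (71.3%) had a UMI and the 5 richest held 39.7%. Dermal T cells, which should lack *Il1b*, had a UMI in 65.3% of cells (median depth 6886 UMIs), at a level of 165 CPM. With each cell thinned to 1000 UMIs the shares were 90.1% of neutrophils, 50.6% of monocytes, 38.7% of basophils, 29.8% of macrophages and 15.7% of T cells. The other lymphoid and stromal pools of the dermis lay between 5.26% (Schwann cells) and 18.7% (fibroblasts) after thinning, with 9.09% of endothelial and 12.5% of natural killer cells.

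Neutrophil transcripts were also found in the other dermal pools, so *Il1b* is given beside them. Dermal neutrophils had 0.345 *Il1b* UMIs per UMI of their marker list, dermal T cells 0.963, fibroblasts 1.36, macrophages 1.53, monocytes 3.05, basophils 4.79 and dendritic cells 5.86. The part of free RNA in the *Il1b* of any pool was not tested.

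*Il1a*, the IL-1α gene, was sparse and uneven. Dermal neutrophils held 223 UMIs (72.4 CPM, 63.2 to 82.5) and dermal monocytes 150 UMIs (15.6 CPM), a 4.63-fold difference (3.75 to 5.74). These pools gave 45.5% and 30.6% of the dermal *Il1a*, from 12.8% and 23.6% of the kept dermal cells. A UMI was found in 73 of 606 neutrophils (12.0%) and in 70 of 1122 monocytes (6.24%), against 2 of 265 dermal T cells (0.755%). The richest neutrophil held 26 UMIs, and the 5 richest held 32.3% of the pool's *Il1a*. In keratinocytes, which are known to store IL-1α protein, *Il1a* stood at 0.608 CPM (0.465 to 0.781) from 61 UMIs in 45 of 3198 cells. The 29 epidermal neutrophils had 0 UMIs, which allows up to 44.5 CPM at 3 UMIs.

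*Il1rn*, the antagonist gene, had its top places shared by 4 pools that counting error did not separate. Dermal neutrophils held 936 UMIs (304 CPM, 285 to 324), epidermal monocytes 49 (293 CPM, 217 to 387), epidermal neutrophils 19 (282 CPM, 170 to 440) and epidermal macrophages 58 (278 CPM, 211 to 359). Dermal macrophages (89.5 CPM, 849 UMIs) and dermal monocytes (88.7 CPM, 852 UMIs) came next and were indistinguishable from each other at a ratio of 1.01 (0.916 to 1.11). Upper follicle keratinocytes stood at 59.8 CPM (64 UMIs), spinous keratinocytes at 34.3 CPM (396 UMIs) and basal keratinocytes at 13.7 CPM (941 UMIs). A UMI was found in 56.3% of dermal neutrophils and 40.8% of dermal macrophages, against 16.2% of dermal T cells (thinned: 24.96%, 11.1% and 3.07%). Keratinocytes held 87.9% of the epidermal *Il1rn* UMIs and 95.6% of all epidermal UMIs.

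The number of *Il1rn* UMIs per *Il1b* UMI, compared between pools and not read as a level of either gene, spanned a wide range. It was 0.0099 (0.00473 to 0.0183) in dermal basophils, 0.0513 in dermal neutrophils, 0.0536 in dermal monocytes and 0.192 (0.178 to 0.207) in dermal macrophages, beside 0.186 (0.143 to 0.240) in dermal T cells. It was 2.45 (2.17 to 2.77) in basal, 4.08 (3.26 to 5.15) in spinous and 10.7 (4.64 to 30.2) in upper follicle keratinocytes. The 4 keratinocyte pools were the only ones above 1 among the 19 pools with UMIs of both genes. Both genes had a UMI in 55.9% of dermal neutrophils and 34.8% of dermal macrophages.

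**Figure D3:**
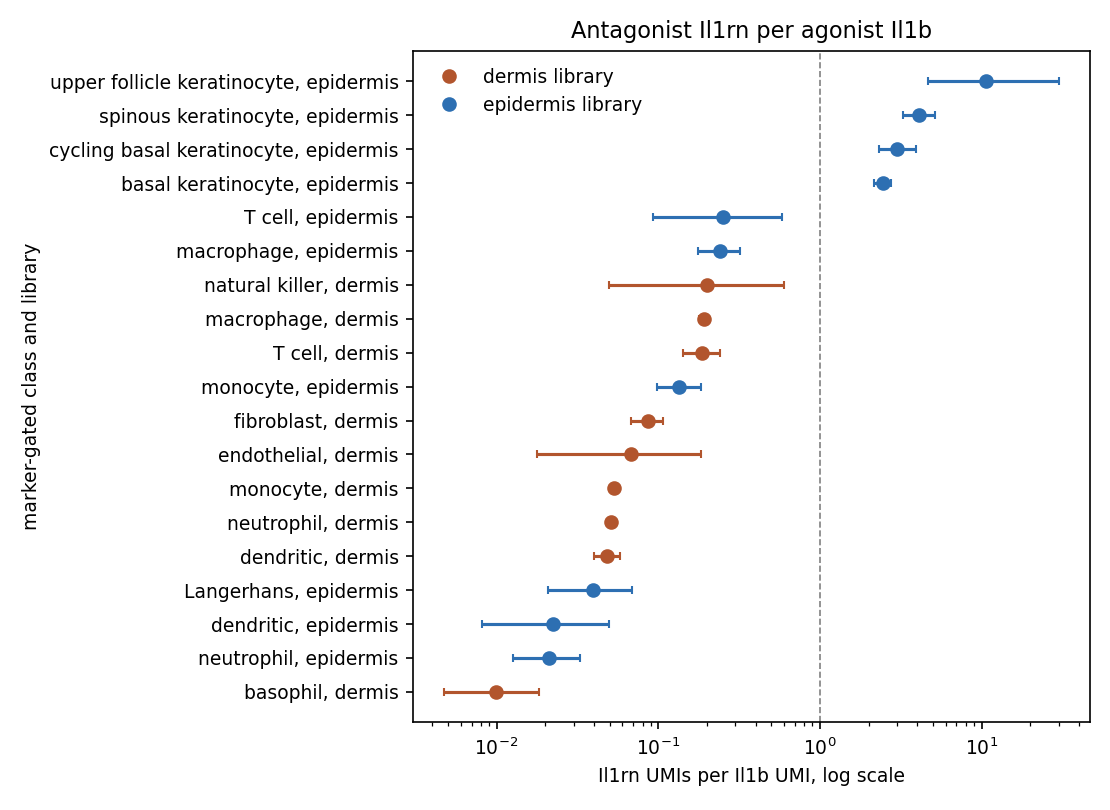
*Il1rn* UMIs per *Il1b* UMI in each marker-gated pool with UMIs of both genes (horizontal axis: ratio on a log scale; bars: exact 95% conditional intervals; colour: library; dashed line: ratio of 1). The 4 keratinocyte pools lie between 2.45 and 10.7, and every immune or stromal pool lies below 1, down to 0.0099 in dermal basophils.

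The IL-36 agonists differed in where they were found. *Il1f9*, the IL-36γ gene, was highest in dermal neutrophils with 1045 UMIs (339 CPM, 319 to 360), which were 69.0% of all dermal *Il1f9*. Epidermal neutrophils had 14 UMIs (208 CPM, 114 to 348) and did not differ from them beyond counting error, at a dermal to epidermal ratio of 1.63 (0.969 to 2.997). A UMI was found in 325 of 606 dermal neutrophils (53.6%) against 8.73% of dermal monocytes and 1.89% of dermal T cells, or in 23.9%, 1.18% and 0.766% of cells thinned to 1000 UMIs.

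Keratinocytes carried *Il1f9* broadly, at 73.4 CPM in spinous (848 UMIs), 52.3 in upper follicle (56 UMIs), 41.8 in basal (2871 UMIs) and 39.2 in cycling basal cells (738 UMIs). Of 3198 keratinocytes, 1927 (60.3%, median depth 31594 UMIs) had an *Il1f9* UMI, against 3.85% of epidermal T cells (median depth 2388 UMIs). After thinning, the shares were 6.72% of spinous and 3.89% of basal keratinocytes against 1.74% of epidermal T cells. *Il1f9* thus had 2 settings, keratinocytes of the epidermis and neutrophils of both libraries.

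*Il1f6* (IL-36α), *Il1f8* (IL-36β) and the antagonist gene *Il1f5* stayed almost wholly with keratinocytes. Of the epidermal UMIs, keratinocytes held 624 of 629 for *Il1f6* (99.2%, 98.2 to 99.7), 273 of 277 for *Il1f8* (98.6%, 96.3 to 99.6) and 215 of 215 for *Il1f5* (100%, 98.3 to 100), against 95.6% of all UMIs. Among the 21 pools each was highest in upper follicle keratinocytes. There *Il1f6* stood at 43.9 CPM (47 UMIs), *Il1f8* at 13.1 CPM (14 UMIs) and *Il1f5* at 25.2 CPM (27 UMIs). The 5 richest of these 54 cells held 74.5%, 71.4% and 59.3% of those UMIs. For *Il1f6* counting error did not separate them from epidermal neutrophils (29.7 CPM, 2 UMIs), at a ratio of 1.48 (0.388 to 12.6). The 11 granular keratinocytes, too few for a pool, stood at 42.35 (14 UMIs), 18.15 (6 UMIs) and 33.3 CPM (11 UMIs). Upper follicle cells that also passed the granular or spinous gate were not set apart. In spinous keratinocytes the levels were 14.2, 3.46 and 7.79 CPM, and in basal keratinocytes 4.88, 2.54 and 1.14 CPM.

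The few *Il1f6* UMIs of the dermal library lay mostly in myeloid classes. Of the 17 dermal *Il1f6* UMIs, 16 lay in myeloid classes, 9 of them in 5 neutrophils and 5 in 4 monocytes, while the 1 keratinocyte of the dermal library had 0. The 54 upper follicle cells were 1.29% of kept epidermal cells.

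The IL-36 antagonist per agonist also differed between keratinocyte pools. *Il1f5* UMIs per UMI of the 3 IL-36 agonists together were 0.0231 (0.0182 to 0.0289) in basal, 0.0107 (0.00488 to 0.0204) in cycling basal, 0.0856 (0.0682 to 0.106) in spinous and 0.231 (0.146 to 0.353) in upper follicle keratinocytes. In dermal neutrophils 1054 agonist UMIs stood beside 0 *Il1f5* UMIs.

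*Il18* was highest in Langerhans cells and dermal macrophages. The 149 epidermal Langerhans cells, the antigen-presenting cells of the epidermis, held 257 UMIs (194 CPM, 171 to 219), and the 928 dermal macrophages 748 UMIs (78.9 CPM, 73.3 to 84.7), a 2.46-fold difference (2.13 to 2.84). Counting error did not separate dermal macrophages from epidermal dendritic cells (48.1 CPM, 13 UMIs), at a ratio of 1.64 (0.953 to 3.09). Epidermal monocytes (47.8 CPM) and epidermal macrophages (38.3 CPM) followed, with 8 UMIs each. Dermal monocytes stood at 38.2 CPM (367 UMIs) and dermal neutrophils at 12.98 CPM (40 UMIs). A UMI was found in 62.4% of Langerhans cells and 37.8% of dermal macrophages, against 0.428% of epidermal and 5.28% of dermal T cells (thinned: 19.5%, 7.25%, 0.434% and 0.383%). Langerhans cells gave 41.1% of the epidermal *Il18* UMIs from 3.57% of the cells. Keratinocytes held 320 of the 625 epidermal UMIs, at 3.19 CPM (2.85 to 3.56).

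*Il33* was found in keratinocytes and fibroblasts. Spinous keratinocytes held 1008 UMIs (87.3 CPM, 82.0 to 92.8) in 179 of 430 cells (41.6%), and the 301 dermal fibroblasts held 222 UMIs (66.2 CPM, 57.8 to 75.6) in 51 cells (16.9%). Spinous keratinocytes were 1.32-fold (1.14 to 1.53) above fibroblasts, and with all gate thresholds doubled fibroblasts were the highest pool instead. Basal keratinocytes stood at 18.8 CPM (1293 UMIs), upper follicle at 17.7 CPM (19 UMIs) and cycling basal at 14.1 CPM (265 UMIs). Dermal and epidermal T cells, as background, had a UMI in 0.755% and 1.93% of cells. After thinning to 1000 UMIs the shares were 5.47% of spinous, 1.85% of basal and 0.784% of cycling basal keratinocytes and 2.82% of fibroblasts, against 0.651% of epidermal and 0% of dermal T cells. At that depth the cycling basal share (4 of 510 cells) was close to that of the epidermal T cells (3 of 461). At full depth 27.3% of cycling basal keratinocytes had a UMI, at a median depth of 36870 UMIs against 2388 for epidermal T cells. Fibroblasts gave 78.7% of the dermal *Il33*, and their 5 richest cells gave 43.2% of that, the richest holding 43 UMIs. A CD45+ sort selects against fibroblasts, so the dermal *Il33* share rests on those that remained.

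Within the epidermis, suprabasal keratinocytes (spinous and granular) were set against the basal and cycling basal ones together, which are the remainder of the gates. Of the members, 4 were at least 2-fold higher in suprabasal than in basal keratinocytes (background 4.52% of 12857 genes) and 0 were at least 2-fold lower (8.59%). *Il1f5* differed most, from 0.995 to 8.50 CPM, an interval of 6.35 to 11.5-fold. *Il33* went from 17.8 to 87.0 CPM (4.51 to 5.28-fold), *Il1f6* from 4.56 to 14.99 CPM (2.74 to 3.93-fold) and *Il1rn* from 13.4 to 34.2 CPM (2.28 to 2.86-fold). *Il1f9* (log2 ratio 0.83), *Il1b* (0.68) and *Il1f8* (0.68) were higher by less than 2-fold, and *Il1a* (0.10) and *Il18* (-0.13) had intervals that include no difference. At a fold of 1.5, 7 members were higher, as were 8.35% of all genes tested. The *Il1b* value among them rested on 1 cell, without which its log2 ratio was 0.12. The median log2 ratio was 0.83 over the members and -0.20 over all genes tested.

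The gate on spinous markers cut a continuum, with 650 cells within 1.5-fold below it and 200 within 1.5-fold above, so keratinocytes outside the follicle class were also described in 5 steps of marker UMIs per 10000, chosen after the values were seen. By CPM, *Il33* peaked in the middle. It went from 8.87 CPM (1268 cells under 30) to 24.4 (1441 cells from 30 to 60) and 118 CPM (218 cells from 60 to 100), then to 64.5 (135 cells from 100 to 200) and 19.6 CPM (82 cells at 200 or more), where the spinous keratin gene *Krt1* reached 9988 CPM. The intervals of the 3 middle steps did not overlap one another or those of the end steps, except that 24.4 (23.1 to 25.8) and 19.6 (13.5 to 27.6) did. In the step from 60 to 100 the 5 richest cells held 29.4% of the *Il33* UMIs, the richest 72. A UMI was found in 47.7% (40.9 to 54.6) of its cells and in 45.2% (36.6 to 54.0) of those from 100 to 200. The share was 31.2% from 30 to 60 and 20.7% at 200 or more. In the step from 60 to 100, *Krt1* stood at 672 CPM, against 123 CPM from 30 to 60. The basal keratin genes *Krt14* and *Krt5* stood at 18611 and 4631 CPM from 60 to 100. They were at 19601 and 5649 CPM from 30 to 60, and at 11961 and 1582.5 CPM at 200 or more. With all gate thresholds doubled, the log2 suprabasal to basal ratio of *Il33* was 0.21 in place of 2.29.

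*Il1rn*, *Il1f9*, *Il1f6* and *Il1f5* instead had their highest value in the top step. For all of these but *Il1f5*, the interval of the top step overlapped that of the fourth step. For *Il1f9* they were 72.3 to 100.9 and 68.7 to 87.5 CPM, and a UMI was found in 67.1% and 69.6% of cells. *Il1rn* went from 8.82 through 16.7, 29.6 and 36.5 to 49.99 CPM. *Il1f9* went from 37.4 to 85.7 CPM and *Il1f6* from 2.83 to 21.4 CPM. *Il1f5* was at 0.816 and 1.14 CPM in the first 2 steps and reached 20.8 CPM (14.5 to 29.0). *Il1f8* stayed between 1.71 and 2.97 CPM in the first 4 steps and was at 11.9 CPM (7.27 to 18.4) in the last, from 20 UMIs. *Il1b* was flat at 4.96 to 5.36 CPM but for the fourth step, at 16.3 CPM, where the 5 richest cells held 70.2% of its UMIs.

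**Figure D4:**
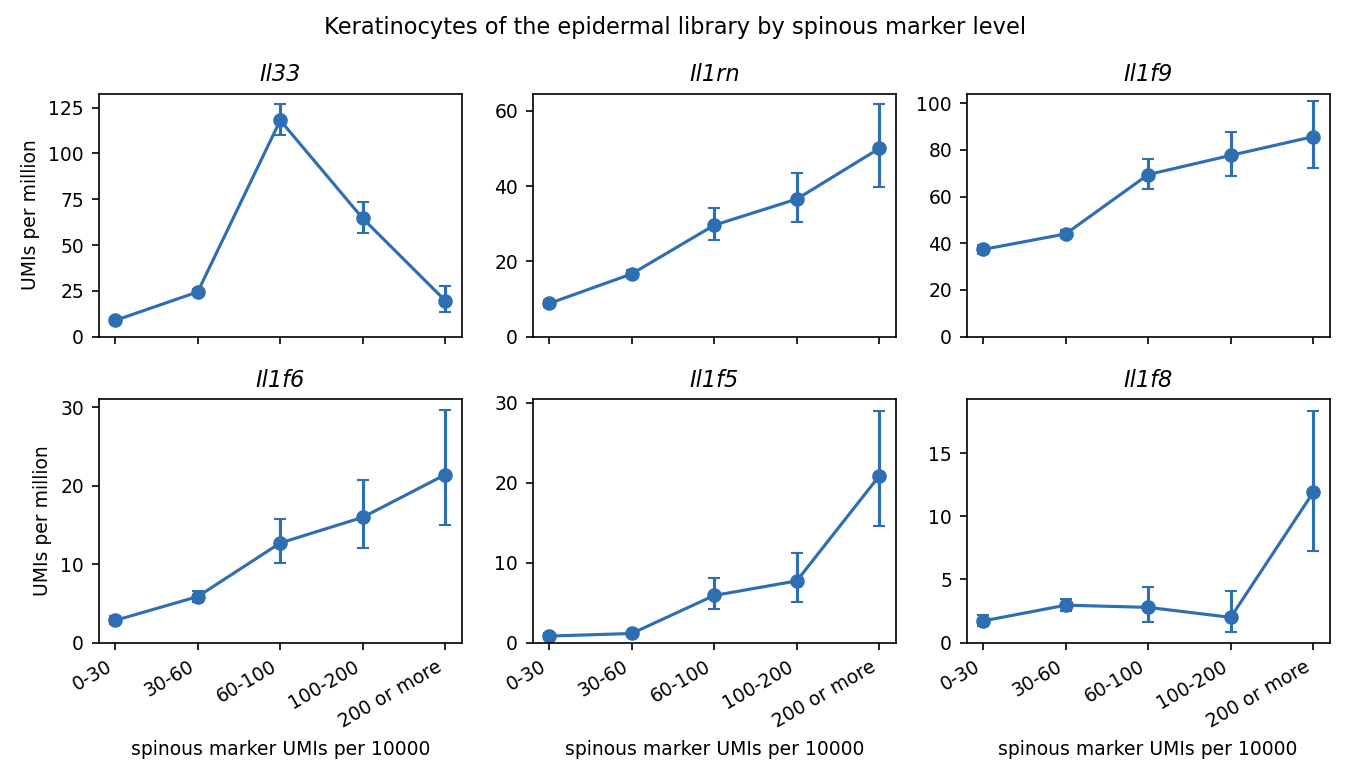
Level of 6 IL-1 family ligands in epidermal keratinocytes outside the upper follicle class, in 5 steps of spinous marker UMIs per 10000 UMIs (vertical axis: UMIs per 1000000 UMIs, linear from 0; points: pooled cells of 1 library; bars: exact 95% Poisson intervals). *Il33* peaks at 118 CPM in the step from 60 to 100 and falls to 19.6 CPM in the top step, whereas the other 5 are highest in the top step. For *Il1rn*, *Il1f9* and *Il1f6* the bars of the fourth and the top step overlap.

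Upper follicle keratinocytes, set against basal ones, had 6 members at least 2-fold higher (background 13.6% of 12710 genes) and 0 lower (12%), with a median log2 ratio of 2.17 against -0.07 over all genes tested. *Il1f5* (interval 15.8 to 39.4-fold), *Il1f6* (6.95 to 13.03), *Il1rn* (3.42 to 5.75), *Il1f8* (2.89 to 9.21) and *Il18* (1.20 to 5.11) had intervals above 1, but the richest cell held 5 of the 9 *Il18* UMIs. *Il1a* rested on 3 UMIs and its interval, 0.959 to 14.9-fold, includes no difference. *Il33* was at 17.7 against 17.8 CPM, a ratio of 0.996 (0.598 to 1.56), and *Il1f9* at 52.3 against 41.3 CPM, a ratio of 1.27 (0.955 to 1.65). The part in these ratios of upper follicle cells that also passed the spinous or granular gate was not tested.

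Among dermal phagocytes, neutrophils set against monocytes had 4 of the 5 members with enough UMIs at least 2-fold higher (background 7.76% of 10002 genes) and 1 lower (23.6%), with a median log2 ratio of 1.84 against -0.46 over all genes tested. *Il1f9* was higher by a log2 ratio of 4.40 (17.8 to 25.2-fold), *Il1a* by 2.21, *Il1b* by 1.84 and *Il1rn* by 1.77, while *Il18* fell by 1.54 on the log2 scale. Macrophages set against monocytes had 1 member higher (10.7% of 10906 genes), *Il18* with a log2 ratio of 1.04, and 3 lower (7.23%), with a median of -1.43 against 0.09. The lower members were *Il1a* at -2.86, *Il1b* at -1.83 and *Il1f9* at -1.43, and *Il1rn* was level at 0.01. *Il18* and the IL-1 agonists thus ran in opposite directions over these 3 classes, 12.98, 38.2 and 78.9 CPM against 5923, 1655 and 467 CPM for *Il1b* in neutrophils, monocytes and macrophages.

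Detection of 2 members in the same cell was compared at full depth and after thinning. In dermal neutrophils *Il1rn* was found in 62.8% of cells with an *Il1f9* UMI and 48.8% of cells without, but in 23.9% and 25.3% after thinning. In spinous keratinocytes *Il33* was found in 49.7% of cells with *Il1f9* and 25.4% without, and in 14.8% (4.19 to 33.7) and 4.80% (2.87 to 7.48) after thinning, whose intervals overlapped. *Il1a* was found in 16.4% of dermal neutrophils with an *Il1rn* UMI and 6.42% without, and in 7.64% (3.88 to 13.3) and 3.70% (2.13 to 5.93) after thinning.

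Classes present in both libraries were compared at unequal numbers of cells. Epidermal macrophages were above dermal ones for *Il1b* (1155 against 467 CPM, 2.47-fold, 2.16 to 2.82) and *Il1rn* (278 against 89.5 CPM, 3.10-fold, 2.34 to 4.05), from 40 and 928 cells. Epidermal neutrophils were above dermal ones for *Il1b* by 2.27-fold (2.12 to 2.42), and their *Il1rn* was at a ratio of 0.928 (0.556 to 1.46). Epidermal monocytes were above dermal ones for *Il1rn* by 3.30-fold (2.42 to 4.40) and for *Il1b* by 1.31-fold (1.18 to 1.45). The monocyte classes were unlike, since 75.7% of the dermal but 0% of the epidermal cells lay in clusters named monocyte, and *Ly6c2* was found in 75.5% against 21.4% of cells. The other classes also differed in part of their gate genes. In dermal against epidermal dendritic cells *Cd209a* was found in 50% and 9.09% and *Ccl17* in 32.95% and 84.85%, but *Ccr7* in 39.8% and 39.4%. In macrophages *Cd163* was found in 22.8% and 2.5% and *Pf4* in 97.3% and 62.5%, but *Ms4a7* in 84.05% and 90%. Epidermal dendritic cells stood at a ratio of 0.875 (0.768 to 0.993) to dermal ones for *Il1b*. They were below dermal ones for *Il1rn* at 0.406 (0.146 to 0.909, 6 epidermal UMIs) and above for *Il18* at 3.86 (1.84 to 7.71, 13 epidermal UMIs). The 5 richest of the 33 epidermal dendritic cells held 71.5% of their *Il1b* UMIs. In epidermal macrophages the 5 richest held 54.8% of *Il1b* and 55.2% of *Il1rn*, and in epidermal monocytes 44.2% and 65.3%. The intervals do not cover such spread between cells. Epidermal macrophages were below dermal ones for *Il18* at 0.486 (0.209 to 0.963). The epidermal pools were shallower, with medians of 4306 against 8298.5 UMIs for macrophages, and the part of depth, dissociation and sort in these differences was not tested. In dermal T cells *Il1b* was 7.54-fold (5.13 to 11.5) above epidermal T cells, in the library whose *Il1b* total was larger.

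The receptors and processing genes of the family were read from a list of 37 genes. Between the libraries 26 of 36 with enough UMIs were at least 2-fold higher in dermis (30.9% of all genes tested) and 3 in epidermis (24.9%), namely *Il1rl2*, *Gsdmc* and *Capn1*, with a median log2 ratio of 2.17 against 0.03 over all genes tested. *Il1r2*, the decoy receptor for IL-1, was highest in epidermal (2803 CPM) and dermal neutrophils (1787 CPM), the same pools that led for *Il1b*. *Il1r1*, the signalling receptor, was highest in fibroblasts at 126 CPM (423 UMIs). *Il1rl2*, the IL-36 receptor gene, had 1345 epidermal and 136 dermal UMIs, 12.8 against 3.37 CPM. By pool it was highest in dermal fibroblasts at 14.9 CPM (50 UMIs). The 29 epidermal neutrophils came next at 14.8 CPM, under the 44.5 CPM that 3 UMIs equal in that pool. Basal and cycling basal keratinocytes together stood at 13.3 CPM. *Il1rl1*, which encodes ST2, was highest in mast cells at 420 CPM (58 UMIs) and basophils at 61.0 CPM, and *Il18r1* in basophils at 139 CPM (75 UMIs) and natural killer cells at 123 CPM. *Il1rap*, the shared accessory chain, was highest in the 21 Schwann cells at 200.5 CPM (20 UMIs) and stood at 88.3 CPM in dermal neutrophils against 11.6 CPM in monocytes.

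Of the inflammasome genes, *Nlrp3* was 54.9 CPM in dermis and 0.409 CPM in epidermis and highest in dermal neutrophils at 229 CPM (707 UMIs). *Prtn3* (log2 ratio 8.44), *Nlrp3* (7.05), *Ctsg* (6.02), *Nlrc4* (5.24) and *Ctss* (1195 against 32.5 CPM) had the largest dermal excess. *Pycard*, the inflammasome adaptor gene, and *Gsdmc* were the 2 genes of the list at least 2-fold higher in suprabasal keratinocytes (2 of 28, against 4.52% of all genes tested), *Pycard* at 554 against 234 CPM and *Gsdmc* at 14.1 against 2.18 CPM. *Il1f10*, the gene of a further ligand of the family, had 0 dermal and 3 epidermal UMIs. In follicle against basal keratinocytes, with the pseudocount of 0.5 UMI, 7 of 28 list genes were at least 2-fold higher (13.6% of all genes tested) and 4 lower (12%). Without the pseudocount *Tollip* (1.999), *Aim2* (1.93) and *Gsdmd* (1.94) among the higher were below 2-fold. *Il18r1* among the higher rested on 1 follicle UMI. Among the lower, *Il1r1* and *Ctss* rested on 1 follicle UMI each, *Casp4* on 2 and *Il1r2* on 3. In neutrophils against monocytes 8 of 31 were higher (7.76%) and 10 lower (23.6%), and in macrophages against monocytes 0 of 33 were higher (10.7%) and 11 lower (7.23%).

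Over the 21 pools, the genes whose log2(CPM + 1) ran closest to each member were named by Pearson's r, a description over pools that share 2 libraries and their depth. *Il1b* ran closest to *Ifitm1* (r = 0.96), *Alox5ap* (0.96) and *Wfdc17* (0.96), *Il1a* to *Ccdc180* (0.87), *Gm40787* (0.84) and *Bmx* (0.83), and *Il1rn* to *Adam8* (0.85), *Rbm47* (0.81) and *Acp5* (0.80). *Il1f9* ran closest to *Ankrd22* (0.86), *S100a9* (0.84) and *Gclm* (0.84). *Il1f5* ran closest to *Neu2* (0.996), *Sptlc3* (0.99) and *Slurp2* (0.99), *Il1f6* to *Tmprss13* (0.95) and *Dsc1* (0.92), and *Il1f8* to *Cldn4* (0.99), *Mal2* (0.99) and *Eppk1* (0.98). *Il33* ran closest to *Il34* (0.92), *Kctd15* (0.90) and *Efna5* (0.87), and *Il18* to *Skap2* (0.81), *Slc15a3* (0.81) and *Gdpd3* (0.80). Among the members themselves *Il1f5* and *Il1f8* were closest at 0.92, and *Il1b* and *Il1f8* farthest apart at -0.77.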

How the data were processed

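One dermal and 1 epidermal library from imiquimod-treated ears were analysed. The authors deposited raw counts, as UMI counts per gene and called cell, whose headers name Cell Ranger 3.0.2. The submitters' processing notes name CASAVA, Cell Ranger and mm10, and the annotation used for counting is not given in the sources used here.

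Barcodes needed 200 genes or more and 10% mitochondrial UMIs or fewer (4747 dermal and 4173 epidermal passed). They were gated on marker lists, with thresholds set after the marker distributions were seen. Basal keratinocytes were those left by the other keratinocyte gates. Immune classes also needed 20 immune UMIs per 10000. Cells past the gates of several lineages (306 dermal, 82 epidermal) were left out as mixed. The study excluded doublets by flow cytometry and with DoubletFinder, none were removed here beyond mixed cells, and removal by Scrublet score was an alternative. UMIs were pooled per class and library and given as CPM. Log2 ratios used a pseudocount of 0.5 UMI and, as a minimum, 20 UMIs in the 2 groups together, and 2-fold was the fixed size. Intervals were exact (Poisson, Clopper-Pearson or conditional). Shares of cells were also taken after thinning to 1000 UMIs, which left out shallower cells. Because each group was 1 library, no test was made. The ratio, its interval and the thinning were tested on simulated data. The simulated counts had no spread between cells beyond counting error, so they do not cover pools where few cells hold many of the UMIs.

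Alternatives were other limits on cells, doublet removal, gates halved or doubled, clusters in place of gates, per-cell means, leaving out the richest cell or shared barcodes, and other folds, minimums and pseudocounts. The genes named were the 9 members, the receptors and the largest ratios of the pathway list, the 3 genes nearest each member (at least 50 UMIs) and marker genes, of which 1 near gene is not reported here. *Il1f10* was named after its values were seen. The members and lists were chosen with earlier results of these data known. Python 3.11.15, numpy 2.4.6, scipy 1.17.1, pandas 2.3.3, scanpy 1.11.5 and matplotlib 3.10.9 were used.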

Additional observations from a re-analysis of the deposited data

Results flagged for a closer look

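Cells that the filters left out, 629 dermal and 1085 epidermal, mostly for over 10% mitochondrial UMIs, also held transcripts of the members above the 3 UMIs that a count of 0 allows, and no comparison used them. In the dermal cells left out there were 722 UMIs of *Il1b* (834 CPM, against 1319 CPM in kept cells), 73 of *Il1rn*, 9 of *Il1f9*, 14 of *Il18* and 6 of *Il33*. In the epidermal cells left out there were 63 UMIs of *Il1b*, 84 of *Il1rn*, 16 of *Il1f5*, 18 of *Il1f6*, 11 of *Il1f8*, 148 of *Il1f9*, 10 of *Il18* and 117 of *Il33*. The level of *Il1f5* was 4.28 CPM in these cells and 2.05 CPM in kept cells. *Il1f9* stood at 39.6 against 43.7 CPM and *Il33* at 31.3 against 25.1 CPM.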

How the results depend on the processing

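No paired analysis was possible because only 1 dermal and 1 epidermal library were at hand, and neither could be left out. Of 74 alternative counts of members, 73 stayed within 1.5 times the reported count, and 1 moved, the members higher in suprabasal keratinocytes, which were 7 with a fold of 1.5, as were 8.35% of all genes tested. A count within that range can hold other members. With all gate thresholds doubled, *Il33* left the members at least 2-fold higher in suprabasal keratinocytes (log2 ratio 0.215). *Il1f8* (1.425) and *Il1b* (1.337) entered them. Of 189 alternative log2 ratios, 34 moved beyond counting error, and no ratio past 2-fold turned its direction. The *Il1f9* ratio between the libraries, within 2-fold, turned with the mean over cells (log2 0.67 in place of -0.22), as did *Il1b* between keratinocyte layers (-0.07 in place of 0.68). The layer ratios of *Il1a* and *Il18*, whose intervals include no difference, turned under several alternatives, between -0.73 and 0.99 for *Il1a* and between -0.20 and 0.98 for *Il18*. The mean over cells also gave log2 dermal to epidermal ratios of 3.23 for *Il1b* in place of 5.32 and 1.48 for *Il18* in place of 2.59. The class of highest CPM changed in 9 of 108 cases. *Il1b* went from the 29 epidermal to the dermal neutrophils with halved gates, clusters or classes of at least 50 cells, *Il1rn* between its leading myeloid pools, and *Il33* to dermal fibroblasts with doubled gates and to upper follicle keratinocytes with halved gates. Shares of cells moved in 28 of 36 cases with another depth or minimum. The follicle and phagocyte comparisons were not recomputed under the alternatives.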
